A study of Mus musculus with 2 samples.

Results

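Small nucleolar RNA (snoRNA) host genes are transcribed into spliced RNAs whose introns hold snoRNAs, the short guide RNAs that direct chemical modification of ribosomal RNA. The host genes described here make no known protein of their own, and the snoRNAs are cut from the introns that splicing removes. They were taken from a list of 10 by pairing Ensembl gene identifiers with symbols. A row of the count table was paired with 8 of the 10 (Gas5, Snhg3, Snhg5, Snhg6, Snhg8, Snhg12, Zfas1 and Epb41l4aos), out of 45318 genes in the table. Snhg1 and Snhg4 were not paired with a row and their own levels are not analysed here.

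As background, several of these genes begin, like ribosomal protein genes, with a 5′ terminal oligopyrimidine (TOP) start, a run of C and T that ties translation of the RNA to growth signalling through mTOR and the RNA-binding protein Larp1. Host RNAs such as that of Gas5 carry only short open reading frames, so ribosomes that engage them send them to nonsense-mediated decay (NMD). The steady level of a host RNA therefore reflects both its transcription and its translation-coupled decay. snoRNAs with boxes C and D guide methylation and are bound by fibrillarin (Fbl). Those with boxes H and ACA guide pseudouridylation and are bound by dyskerin (Dkc1).

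The samples were GFP-positive leukaemia cells driven by the MLL/AF9 fusion gene, a model of acute myeloid leukaemia, sorted from the marrow of C57Bl/6 mice. There was 1 library from vehicle-treated and 1 from brequinar-treated mice. Brequinar inhibits dihydroorotate dehydrogenase, an enzyme of de novo pyrimidine synthesis. The sources used here do not give the dose, treatment time, number of mice behind each library or way the fusion was introduced. As each group has 1 library, replicate spread is unknown and no p-value is given. Intervals are exact (Clopper-Pearson) 95% intervals that cover counting error only, and reads without molecular identifiers can make them too narrow. In bulk RNA, fewer cells of a type and less RNA per cell cannot be told apart.

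The vehicle library held 47935476 counts on genes and the brequinar library 47950714. Levels are given as CPM, counts scaled by TMM to a common library size, on which 1 count equals 0.0202 (vehicle) and 0.0215 (brequinar). Among 6 genes used to check the cell label, the leukaemia genes Hoxa9 (238 and 231 CPM) and Meis1 (71.6 and 87.4 CPM) were present in both libraries. The myeloid progenitor markers Mpo (5912 and 979 CPM), Cd34 (140 and 48.8 CPM) and Kit (180 and 76.5 CPM) were lower after brequinar, as the host genes were, and Ptprc, which encodes CD45, was higher (286 and 538 CPM). Paired levels give vehicle first and brequinar second. Markers of other blood cells differed between the libraries. All 12 neutrophil markers were higher by 2-fold or more after brequinar, with a summed level of 1442 and 24633 CPM. So were 11 of 12 erythroid markers (244 and 477 CPM over all 12). Of 7 measured macrophage markers of 10 listed, 5 were at least 2-fold higher (595 and 767 CPM over all 10). Markers short of 2-fold held much of the last 2 sums, namely erythroid Tfrc (161 and 188 CPM) and macrophage Vcam1 (370 and 496 CPM) and Adgre1 (221 and 225 CPM). Of 4 measured lymphoid markers of 12 listed, 2 were at least 2-fold lower (54.2 and 25.4 CPM over all 12). Of 11504 genes averaging 1 CPM or more, 6.45% were at least 2-fold higher and 4.4% at least 2-fold lower. No marker of these 4 lists was at 0 in either library. The part of all these markers, progenitor markers included, in the host gene differences was not tested.

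The snoRNAs themselves show what these genes carry. GENCODE places 25 annotated snoRNA entries on the strand and within the span of the 8 host genes. Gas5 holds 10 of them, Snhg12 holds 5, Zfas1 holds 3, Snhg3 and Snhg5 hold 2 each, and Snhg6, Snhg8 and Epb41l4aos hold 1 each. The 10 in Gas5 include a pair of overlapping entries that are both named Snord80, and the 5 in Snhg12 a pair both named Snora16a. Entries thus outnumber distinct snoRNAs. Another entry in Gas5 bears a microRNA name, Mir5117. By symbol, Snhg3 (Snora73a and Snora73b) and Snhg8 (Snora24) hold H/ACA snoRNAs. The named entries of Zfas1 (Snord12), Snhg5 (Snord50a and Snord50b) and Snhg6 (Snord87) are of the C/D class. Snhg12 holds both kinds (Snord99 with Snora16a, Snora44 and Snora61). The 3 sequences printed next, each from a different C/D host, show the boxes in capitals. Box C was searched as TGATGA near the 5′ end and box D as CTGA near the 3′ end, on the snoRNA's own strand. Both were found in 68 of 98 annotated Snord genes (69.4%).
Snord47, in Gas5, chr1:161038082-161038158 (GRCm38, plus strand): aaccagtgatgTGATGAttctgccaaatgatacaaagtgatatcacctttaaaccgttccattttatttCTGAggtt
Snord12, in Zfas1, chr2:167065276-167065365 (plus strand): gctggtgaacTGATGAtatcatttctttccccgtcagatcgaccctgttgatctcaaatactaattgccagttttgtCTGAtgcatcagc
Snord87, in Snhg6, chr1:9942463-9942549 (minus strand): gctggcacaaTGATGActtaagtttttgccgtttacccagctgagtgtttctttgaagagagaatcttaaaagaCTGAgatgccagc

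The start sequences of the host genes were read from RefSeq (GRCm38.p6), which matched 6 of the 8 genes: Gas5, Snhg3, Snhg5, Snhg8, Snhg12 and Zfas1. The 4 printed next contrast starts with longer and shorter pyrimidine runs. Each runs from 40 bases before the annotated start to 50 bases from it onwards, and capitals mark the longest run of C and T that lies within 20 bases of the start.
Gas5, downstream start, chr1:161035126-161035215 (plus strand): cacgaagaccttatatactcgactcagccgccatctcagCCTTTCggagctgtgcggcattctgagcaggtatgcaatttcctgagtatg
Snhg8, chr3:123508287-123508376 (minus strand): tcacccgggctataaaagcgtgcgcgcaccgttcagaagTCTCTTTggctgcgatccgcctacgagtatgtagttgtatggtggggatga
Snhg12, chr4:132308638-132308727 (plus strand): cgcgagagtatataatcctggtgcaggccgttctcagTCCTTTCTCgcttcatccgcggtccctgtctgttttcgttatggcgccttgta
Zfas1, chr2:167062894-167062983 (plus strand): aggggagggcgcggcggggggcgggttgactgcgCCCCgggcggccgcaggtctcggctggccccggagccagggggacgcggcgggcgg

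The starts of Gas5 and Snhg8 printed above are a C followed by at least 4 bases that are C or T, the letters of a TOP start. Of 32851 RefSeq starts, 2.51% have these letters. In Snhg12 a run of 9 bases crosses the annotated start, which itself is a T. Snhg5 has a run of 7 bases that begins at base 8 from the start, and Snhg3 a run of 5 bases from base 3. The upstream start of Gas5 and the start of Zfas1 have runs of 3 and 4 bases, against a median of 5 over all starts. Longer runs are common, as 44.4% of all starts have a run of 6 or more bases within 20 bases. Annotated starts can lie some bases from the true one. Among 57 ribosomal protein genes, the textbook class of TOP mRNAs, 14 have these letters at a RefSeq start.

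All 8 host genes passed the filter (an average level of 1 CPM or more), and all 8 were lower in the brequinar library. Their log2 ratios (brequinar over vehicle, prior count of 2) lay between -1.59 and -0.42 with a median of -0.69. Among 11504 genes that passed the same filter, 49.9% had a log2 ratio below 0 and the median was 0.00029. Gas5, Snhg3 and Zfas1 were at least 2-fold lower, against 4.4% of all genes tested. With Epb41l4aos, 4 of the 8 were at least 1.5-fold lower, against 12.7% of all genes, and none was higher by that size, against 12.7%. The counting interval of the ratio lay wholly below 1 for 8 of 8, as it did for 37.7% of all genes. For the same 4 genes the whole interval lay beyond 1.5-fold, against 7.53% of all genes. Summed over the 8 genes, the level was 369 CPM and 184 CPM, which is 2.01-fold lower (interval 1.95 to 2.06). Without Gas5 the sums were 191 and 125 CPM, which is 1.53-fold lower (interval 1.48 to 1.58).

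**Figure D1:**
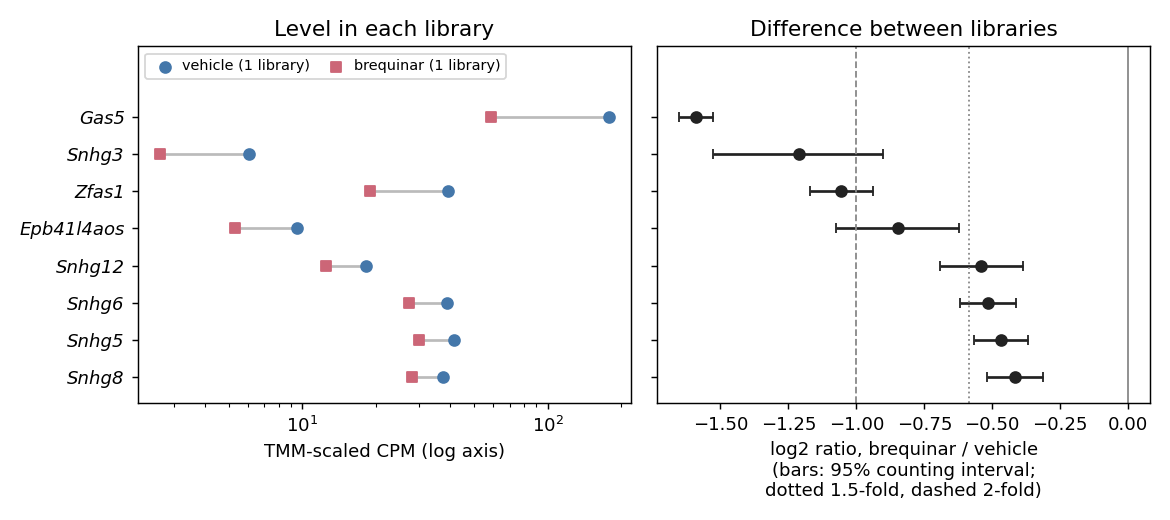
Left, level of each host gene in the vehicle library (circles) and the brequinar library (squares), as TMM-scaled CPM on a log axis. Right, log2 ratio of brequinar over vehicle with its 95% counting interval, where the dotted line marks 1.5-fold and the dashed line 2-fold lower. Every square lies to the left of its circle, and the gap is widest for Gas5 (178 and 59.0 CPM).

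Among hosts of C/D snoRNAs, Gas5 (growth arrest-specific 5, ENSMUSG00000053332.10) was the most abundant. It lies on chromosome 1 from 161034422 to 161038539, plus strand, and is annotated as a processed transcript with 25 models. It had 8786 counts with vehicle and 2742 with brequinar, or 178 and 59.0 CPM. That was 3.01-fold lower (interval 2.88 to 3.14), and 1.39% of the genes tested had a lower log2 ratio. Gas5 alone made 48.2% of the summed host gene counts with vehicle and 32.1% with brequinar.

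Zfas1 (ENSMUSG00000074578.9), named for its position antisense to the start of the gene Znfx1, lies on chromosome 2 from 167062934 to 167065862, plus strand. It had 1944 and 878 counts, or 39.3 and 18.9 CPM. It was 2.08-fold lower (interval 1.92 to 2.25), so counting error alone reaches across the 2-fold line.

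Snhg5 (ENSMUSG00000097195.5), the host of the U50 snoRNAs, lies on chromosome 9 from 88521050 to 88522929, minus strand. It had 2054 and 1395 counts, or 41.5 and 30.03 CPM, and was 1.38-fold lower (interval 1.29 to 1.48). Snhg6 (ENSMUSG00000098234.4) lies on chromosome 1 from 9941959 to 9944118, minus strand. It had 1927 and 1266 counts, or 38.9 and 27.3 CPM, and was 1.43-fold lower (interval 1.33 to 1.54). These C/D hosts stood close to Zfas1 in CPM in the vehicle library and above it in the brequinar library.

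Among hosts of H/ACA snoRNAs, Snhg3 (ENSMUSG00000085241.4), which carries the U17 snoRNAs, was the least abundant of the 8. It lies on chromosome 4 from 132348014 to 132353686, minus strand. It had 301 and 122 counts, or 6.08 and 2.63 CPM. It was 2.32-fold lower, with the widest interval (1.87 to 2.88). Snhg8 (ENSMUSG00000104960.1) lies on chromosome 3 from 123507552 to 123508404, minus strand. It had 1859 and 1307 counts, or 37.6 and 28.1 CPM. Its difference was the smallest of the 8, at 1.34-fold lower (interval 1.24 to 1.43).

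Snhg12 (ENSMUSG00000086290.5), which holds both classes of snoRNA, lies on chromosome 4 from 132308623 to 132311024, plus strand. It had 898 and 580 counts, or 18.1 and 12.5 CPM, and was 1.45-fold lower (interval 1.31 to 1.62). Epb41l4aos (ENSMUSG00000087590.2), whose single snoRNA entry has no class in its symbol, lies on chromosome 18 from 33794892 to 33795986, plus strand. It had 471 and 246 counts, or 9.52 and 5.30 CPM, and was 1.797-fold lower (interval 1.54 to 2.11). Both classes of host thus hold a gene beyond 2-fold and a gene within 1.5-fold.

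Ordered by ratio, from Gas5 through Snhg3, Zfas1, Epb41l4aos, Snhg12, Snhg6 and Snhg5 to Snhg8, each gene's counting interval overlapped that of the next. The interval of Gas5 met that of Snhg3 only at its edge, and it did not reach that of Zfas1. Per kilobase of annotated exon, Gas5 was first in the vehicle library (47.2 CPM per kilobase), ahead of Snhg8 (44.0), Snhg6 (34.0), Snhg5 (24.0) and Epb41l4aos (22.1). In the brequinar library Gas5 was in place 4 (15.7 CPM per kilobase), behind Snhg8 (32.99), Snhg6 (23.8) and Snhg5 (17.4). Zfas1 (13.4 and 6.45 CPM per kilobase), Snhg12 (7.56 and 5.20) and Snhg3 (6.17 and 2.66) kept the last 3 places in both libraries. The order was the same with the length of the longest transcript. These models come from a later annotation than the table's identifiers, so levels per length are approximate.

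Transcript length moved with the ratio. Genes with a longest transcript of up to 1000 bases had a median log2 ratio of -0.21 over 952 genes. Of these, 28.2% were at least 1.5-fold lower and 10.7% higher, while at 2-fold 56 were lower and 69 higher. The longest transcripts of the 8 host genes measured 430 to 2556 bases. Over 4127 genes of up to 2556 bases the median was -0.05, with 17.6% at least 1.5-fold lower and 12.5% higher. After a correction of all ratios for transcript length and GC content, chosen after seeing the data, the host gene median was -0.47. Gas5 (-1.66), Zfas1 (-1.04) and Snhg3 (-1.004) stayed at least 2-fold lower, while Epb41l4aos, the shortest, came to -0.46 and within 1.5-fold. Noncoding genes as a class had a median of -0.21 over 349 genes, with 28.4% at least 1.5-fold lower and 19.8% at least 1.5-fold higher.

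**Figure D2:**
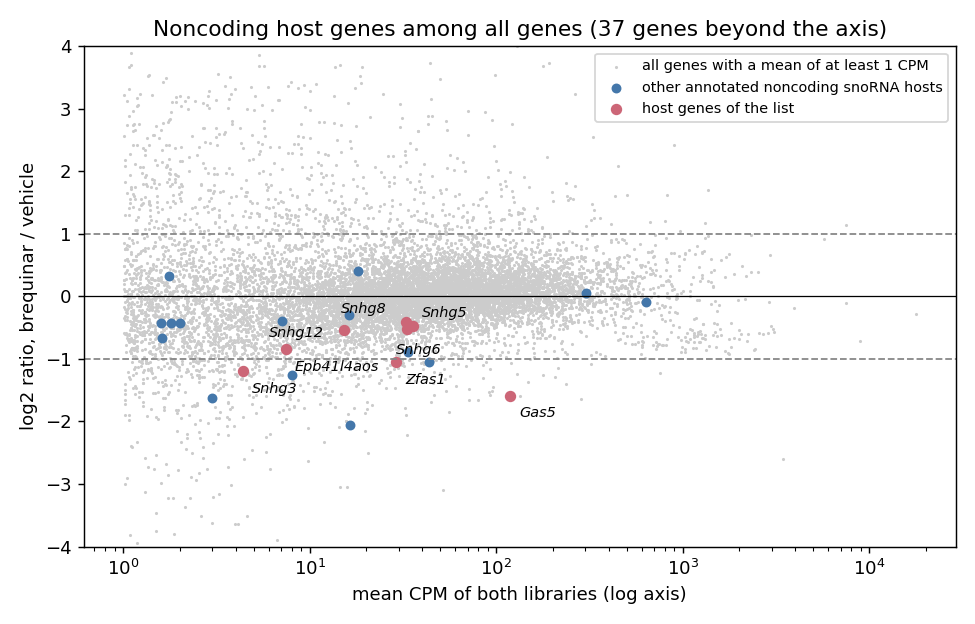
Log2 ratio of brequinar over vehicle against mean CPM of both libraries (log axis) for the 11504 genes tested, of which 37 lie beyond the axis. The 8 host genes (red) all lie below 0, with Gas5 lowest, and other annotated noncoding snoRNA hosts (blue) are spread from -2.06 to 0.41.

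Reads of a snoRNA that lies inside a host can be counted for either or for neither. The 25 snoRNA entries of the 8 host genes all have a row. In 5 hosts (Gas5, Snhg5, Snhg8, Snhg12 and Zfas1) every entry overlaps an annotated exon of the host, as in models that keep the intron, and all 21 of those rows were at 0 in both libraries. In Snhg3, Snhg6 and Epb41l4aos, each of which has an entry outside exons, the snoRNA rows held 23 and 5, 18 and 14, and 12 and 3 counts, respectively. Poly(A) selection captures mature snoRNAs poorly, and 1346 of 1558 snoRNA rows of the table were at 0 in both libraries.

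Snhg1, the host of Snord22 and its neighbours on chromosome 19, differs from those 5 hosts: all 8 of its entries overlap an annotated exon of the host, and none of their rows was at 0. Unlike those hosts, Snhg1 was not paired with a row of its own, and the part of this in the contrast was not tested. The 8 snoRNA rows inside its span, between 8723993 and 8725991 on the plus strand, held 1120 counts with vehicle and 658 with brequinar. That was 25.0% and 19.95% of all counts on snoRNA rows. The sum was 1.60-fold lower in the brequinar library (interval 1.45 to 1.76). Snord22 had 185 and 113 counts, and the most counted row, Gm24452, had 228 and 124. After scaling, 7 of the 8 rows were lower, 6 of them with the whole interval below a ratio of 1, while Gm23246 had 63 and 72 counts with an interval of 0.86 to 1.74. Whether these reads come from unspliced or intron-keeping Snhg1 RNA or from the snoRNAs was not tested.

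**Figure D3:**
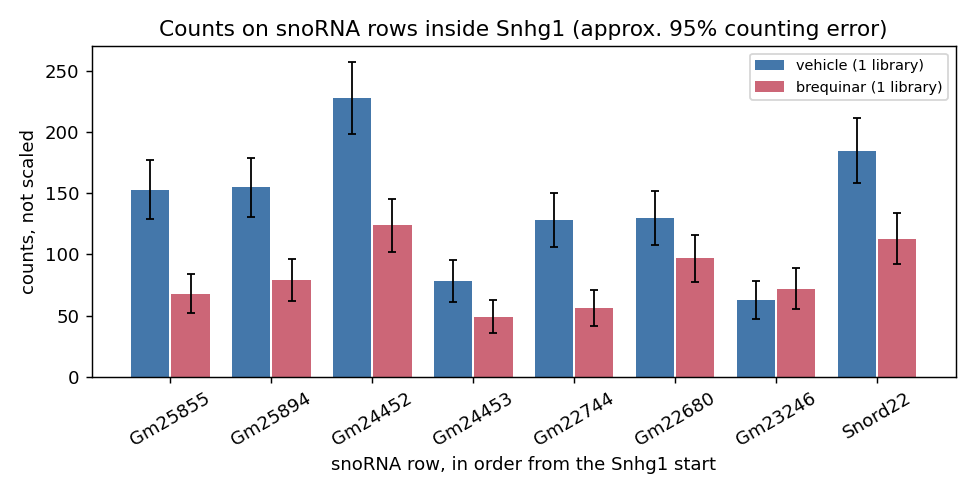
Unscaled counts on the 8 snoRNA rows inside Snhg1, in order from the gene's start, in the vehicle (blue) and brequinar (red) libraries. Bars start at 0 and error bars are approximate 95% counting intervals. The vehicle bar is the taller in every row but Gm23246 (63 and 72 counts).

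Several host genes share a promoter region or overlap with a protein-coding gene, and those neighbours were measured beside them. Zfas1 and Znfx1, which encodes a zinc finger helicase of antiviral defence, start 81 bases apart on opposite strands. Znfx1 stood at 21.1 and 38.9 CPM, 1.84-fold higher (interval 1.71 to 1.993), while Zfas1 was 2.08-fold lower. They share 82 exon bases, which is 2.80% of Zfas1. The kit preserves strand, but whether the counting used it is not stated, so reads in that stretch are uncertain.

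Snhg3 lies on the same strand as Rcc1, the gene of the nucleotide exchange factor for Ran, and their annotated starts are 81 bases apart. Rcc1 stood at 115 and 129 CPM, 1.12-fold higher (interval 1.08 to 1.16), beside the 2.32-fold lower Snhg3. They share 135 exon bases, or 13.7% of Snhg3, and reads there are ambiguous. Snhg3 also shares 705 exon bases, or 71.5% of its own, with Gm17300 on the other strand, whose row was at 0 in both libraries. As the counting strand is not given, reads in that stretch are uncertain, and with them the level and rank of Snhg3. Gas5 and the zinc finger gene Zbtb37 start 427 bases apart on opposite strands and share no exon base. Zbtb37 stood at 7.84 and 5.58 CPM, 1.41-fold lower (interval 1.20 to 1.65), less than the 3.01-fold of Gas5. Slc3a2, an amino acid transporter subunit, starts 106 bases from Snhg1 on the other strand. No level of Snhg1 itself stands beside it. It stood at 114 and 103 CPM, 1.10-fold lower (interval 1.06 to 1.15). The overlapping Mcmdc2 at Snhg6 had 15 and 22 counts and did not pass the filter.

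**Figure D4:**
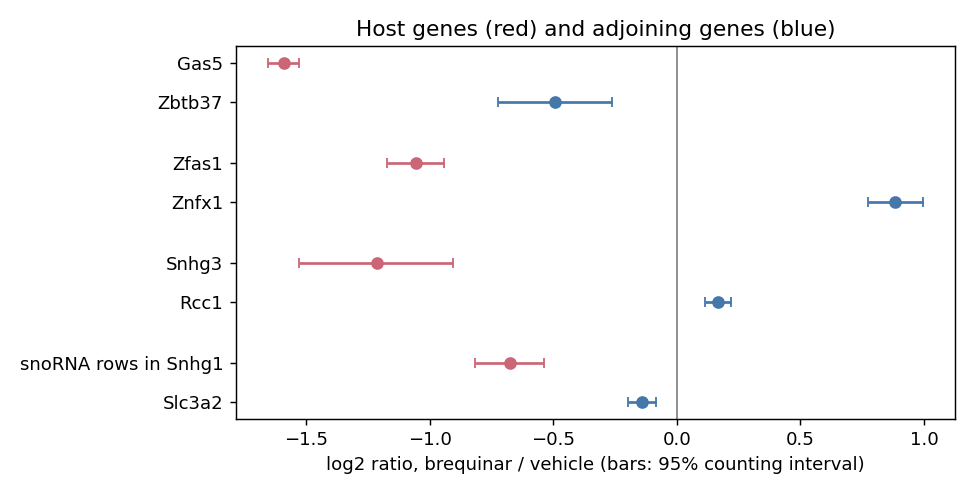
Log2 ratio of brequinar over vehicle with 95% counting intervals for host genes (red) and the coding gene that adjoins or overlaps each (blue), with the summed snoRNA rows inside Snhg1 drawn beside Slc3a2. No pair of intervals overlaps, and Znfx1 and Rcc1 lie above 0 beside hosts below 0.

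A second list of 14 noncoding hosts had 10 with a paired row and 5 that passed the filter. Of those, 4 were below 0 and 2 were at least 1.5-fold lower, a share of 40% beside the 28.4% of all noncoding genes tested. Their median was -0.42, and -0.73 without the filter. The 2 were 2410006H16Rik (58.4 and 28.2 CPM) and 1110038B12Rik (43.7 and 23.6 CPM). Snhg17 stood at 17.9 and 14.5 CPM. Snhg15 went the other way, at 15.5 and 20.5 CPM (1.33-fold higher, interval 1.21 to 1.46).

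Hosts were also taken from the annotation alone, as genes that hold a snoRNA on their own strand outside their exons. Of 10 noncoding hosts so defined, 3 of them from the 8 above, 5 were at least 1.5-fold lower and none higher (median -0.59). The annotation types Cct6a, a chaperonin subunit gene that is also on the list of coding hosts, as a noncoding processed transcript. Without it, 5 of 9 were at least 1.5-fold lower (median -0.67). That definition misses genes with intron-keeping models, so a wider one, any snoRNA within the span, was added after seeing the data. It gave 23 noncoding hosts, of which 10 were at least 1.5-fold lower and none higher (median -0.51), or 10 of 22 without Cct6a (median -0.53). The 15 that were not among the 8 had 6 at least 1.5-fold lower and a median of -0.42, or 6 of 14 without Cct6a (median -0.43). With Cct6a, the shares at least 1.5-fold lower were 50%, 43.5% and 40%, beside 28.4% of all 349 noncoding genes tested (median -0.21). Of those 349, 19.8% were at least 1.5-fold higher.

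Protein-coding hosts with a snoRNA outside their exons numbered 172, of which 21 were at least 1.5-fold lower and 8 higher (median -0.05). Those are shares of 12.2% and 4.65%, beside 12.7% lower and 12.7% higher over all genes tested. Coding hosts were then split by what they encode. With the wider definition, 30 ribosomal protein genes that host a snoRNA were all lower, 24 of them by at least 1.5-fold, with a median of -0.71. The other 180 coding hosts had a median of -0.02, with 10 at least 1.5-fold lower and 10 higher. On the named list of 41 coding hosts, most of them ribosomal protein genes, 19 were at least 1.5-fold lower and none higher (median -0.57). Rps20 (1058 and 451 CPM) and Taf1d, a subunit of the RNA polymerase I factor SL1 (56.0 and 24.9 CPM), were lowest. Eif4g2 (1375 and 1520 CPM) and Rcc1 were highest.

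The host gene median of -0.69 stood beside -0.67 for 55 measured ribosomal protein genes that were not on the list of coding hosts, though some hold an annotated snoRNA. Of these, 40 were at least 1.5-fold lower and none at least 2-fold, against 12.7% and 4.4% of all genes tested. Among genes with a longest transcript of up to 1000 bases, 28.2% were at least 1.5-fold lower. Rpl10a (921 and 512 CPM) was among the lowest, and Rps29 (1681 and 1258 CPM) and Fau (1019 and 847 CPM) highest among those with a mean of at least 5 CPM. Processed pseudogenes make the levels of these genes uncertain. The 16 other TOP mRNAs, which share 3 genes with the coding hosts, were all lower (median -0.53), against 49.9% of all genes tested. By at least 1.5-fold, 7 of them were lower, against 12.7%. They ran from Pabpc1, the poly(A)-binding protein (2288 and 1218 CPM), and Eef1b2 (926 and 544 CPM) to Eif3e (352 and 296 CPM) and Eef1d (211 and 178 CPM). Gas5 had a lower log2 ratio (-1.59) than Rps20 (-1.23), the lowest of the ribosomal protein genes on either list, while Snhg3 (-1.20) and Zfas1 (-1.05) lay above Rps20. This orders single genes in 2 libraries and is no test.

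Ratios were also set beside the start letters. Of 257 tested genes with such a start, 18.3% were at least 1.5-fold lower and 11.3% higher (median -0.06), against 11.3% and 12.6% of 8433 without one (median 0.01). The 14 ribosomal protein genes among the 257 had a median of -0.69, and the other 243 a median of -0.04, with 15.2% at least 1.5-fold lower and 11.9% higher. No test was made of these shares. Of the host genes, Gas5, at its downstream start only, and Snhg8 have these letters. Their differences were the largest and the smallest. No start was read for Snhg6 and Epb41l4aos.

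**Figure D5:**
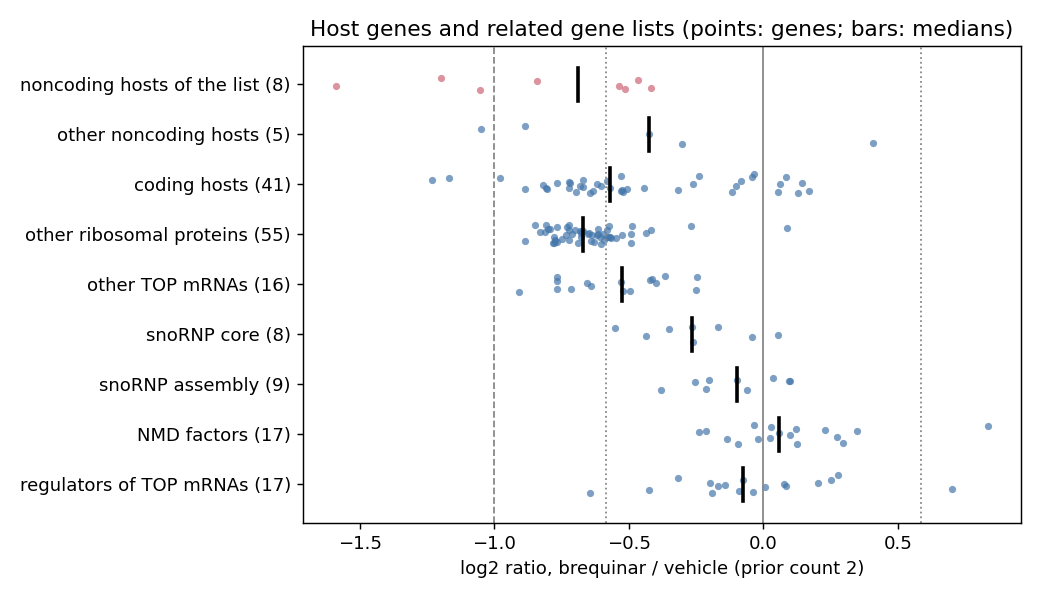
Log2 ratio of brequinar over vehicle for each gene that passed the filter, by list, with the number of genes in brackets and the median as a black bar. Dotted lines mark 1.5-fold and the dashed line 2-fold lower. The noncoding hosts, ribosomal protein genes and other TOP mRNAs have medians between -0.69 and -0.42, and NMD factors a median of 0.06.

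Genes that act on host RNAs or their products were described by the same counts. Of all genes tested, 12.7% were at least 1.5-fold lower, 12.7% higher and 49.9% below 0. None of the 8 core snoRNP proteins was past 1.5-fold, though 7 were below 0 (median -0.26). Of the 8, Dkc1, Nop58 and Nop56 are also on the list of coding hosts. The H/ACA protein gene Gar1 (90.7 and 61.8 CPM) and Fbl (365 and 270 CPM) were lowest, and the C/D proteins Nop58 (265 and 257 CPM) and Nop56 (183 and 190 CPM) highest. None of 9 snoRNP assembly factors was past 1.5-fold (median -0.10), from Ruvbl1 (96.4 and 74.1 CPM) and Znhit6 (34.2 and 28.7 CPM) to Znhit3 (13.6 and 14.5 CPM) and Nufip1 (39.8 and 42.6 CPM).

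The 17 NMD factors, which act in the decay of such RNAs, had a median of 0.06. At least 1.5-fold higher was 1 of them, against 12.7% of all genes tested. That gene was Magohb, an exon junction protein (17.8 and 31.8 CPM), next to its paralogue Magoh (105 and 134 CPM). Smg6, the endonuclease of the pathway (53.8 and 45.6 CPM), and Dhx34 (23.0 and 19.9 CPM) were lowest. Among 17 genes of mTOR signalling and TOP binding, 1 was at least 1.5-fold higher and 1 lower, each against 12.7% of all genes. Their median was -0.08. Mlst8, an mTOR complex subunit, was the higher one (39.9 and 64.9 CPM), followed by Tial1 (71.3 and 86.5 CPM). Tia1, an RNA-binding protein of TOP mRNAs, was the lower one (50.4 and 32.2 CPM), followed by Rps6kb2 (11.5 and 8.55 CPM).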

How the data were processed

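Each library was prepared from oligo(dT)-selected RNA with a strand-preserving kit and sequenced from both ends, per the labels' protocols. The authors deposited raw counts, 1 whole number per gene and library. The submitters' processing notes list Picard (versions 1.99 and 2.2.4), STAR 2.4.2a and build mm10. Which program counted the reads, with which strand setting and annotation, is not given in the sources used here. Lines that name no gene held 21.6% (vehicle) and 20.2% (brequinar) of reads, 1.23% and 1.12% as ambiguous, and were left out.

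Symbols, exons and coordinates came from GENCODE mouse release 21 (GRCm38) by identifier without version. TMM factors, from edgeR 4.0.16 in R 4.3.3, were 1.03 (vehicle) and 0.969 (brequinar). Folds are ratios of CPM. Calls rest on log2 ratios (prior count 2) of genes averaging 1 CPM or more. The count floor was 3. Alternatives were other scalings (with DESeq2 1.42.0), filters, prior counts and a lowess correction (span 0.3). Intervals used scipy 1.17.1 and the lowess fit statsmodels 0.14.6 under Python 3.11.15. The procedure was tested on simulated data that held counting error only, so that test does not cover replicate spread.

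The host genes and lists were chosen with earlier results of these data known. Named were every host gene, each neighbour that passed the filter, and the 2 highest and 2 lowest members of each other list with a mean of at least 5 CPM. Some genes that this rule names are not reported here. Other genes were named after their values were seen.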

Additional observations from a re-analysis of the deposited data

How the results depend on the processing

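The log2 ratios of all 8 host genes stayed below 0 under each of 9 alternatives, but few of these could have changed a sign. Filters do not alter a gene's ratio, and the other scalings shifted every log2 ratio by -0.004 to -0.09. The length and GC correction brought Snhg8 to -0.24, the nearest to 0. The number at least 2-fold lower stayed at 3, except that a minimum of 5 CPM, which Snhg3 does not pass, gave 2. The number at least 1.5-fold lower was 6 with total counts and without the 50 most abundant genes, and 3 with the 5 CPM minimum or the length and GC correction. That correction moved the host gene median to -0.47, and no corrected median of the comparison lists is given. The 5 CPM minimum gave a host gene median of -0.54. Total counts shifted every log2 ratio by -0.09. With total counts the medians were -0.66 for coding hosts, -0.76 for other ribosomal protein genes, -0.62 for other TOP mRNAs, -0.36 for core snoRNP proteins, -0.17 for regulators of TOP mRNAs and -0.14 for annotated coding hosts. Without the 50 most abundant genes they were -0.65, -0.75, -0.61, -0.34, -0.15 and -0.13, in the same order. With upper quartile scaling the first 3 were -0.60, -0.70 and -0.56. The median of the second list of noncoding hosts was -0.73 without a filter and -0.59 with the 5 CPM minimum. Without a filter the median of annotated noncoding hosts was 0, with more genes tested. The shifts under other scalings are those of the scaling factor itself. Over all genes, 506 were at least 2-fold lower and 742 higher. Those counts were 2074 and 2470 without a filter, and 230 and 457 with the 5 CPM minimum. At 1.5-fold they were 1463 and 1456, against 1823 and 1211 with total counts, 4259 and 4538 without a filter, and 871 and 1039 with the 5 CPM minimum. Depth limits Snhg3 and Epb41l4aos most, whose intervals are widest. No paired analysis was possible because each group has 1 library. With 1 library per group, no replicate could be left out.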

Other observations

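Some hosts on the second list lay below the filter of 1 CPM. Snhg9 had 28 counts with vehicle and 4 with brequinar, 6.57-fold lower with a counting interval of 2.30 to 25.8, and Snhg11 had 77 and 16 counts, 4.52-fold lower (interval 2.61 to 8.30). The annotation types Snhg11 as protein coding. Snhg18 had 6 counts and 0, Snhg14 had 2 and 2, and Rian, an imprinted host, had 1 and 0, at or near the floor of 3 counts.

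Among annotated noncoding hosts outside the lists, chosen after their values were seen, 9330159M07Rik had the lowest log2 ratio (-2.06, 26.5 and 6.31 CPM), below that of Gas5. Rab26os followed (4.53 and 1.44 CPM), and Gm26512 stood at 11.4 and 4.74 CPM. AI506816, at 650 and 612 CPM, was the most abundant of the 23 noncoding hosts found with the wider definition, with a log2 ratio of -0.09. As the counting strand is not given, antisense genes such as Rab26os carry an uncertain share of reads.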
